A study of Mus musculus with 6 samples.

Results

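Scavenger receptors and efferocytosis receptors are the surface proteins with which macrophages take up modified lipoproteins, microbes and dying cells. The 10 genes described here are the scavenger receptors Marco, Msr1, Cd36, Scarb1, Cd163 and Stab1, the receptor kinases Mertk and Axl, and the secreted bridging molecules Gas6 and Mfge8. They were taken by name, with every probe set that the annotation of the array gives to 1 of these symbols alone. This gave 20 of the 45037 probe sets tested, for 10 of the 20967 genes with such a probe set. All macrophages were derived from marrow of KO mice for miR-155 (B6.Cg-Mir155tm1.1Rsky/J), which carry a germline deletion of this microRNA on the C57BL/6J background, and were grown with L929 cell supernatant as the source of macrophage colony stimulating factor. After replating without that supernatant, they were kept for 24 hours in 1 of 3 conditions. KO M1 macrophages received LPS (100 ng/ml by the sample labels, whereas the methods of the paper give another dose) with IFN-γ (20 ng/ml), KO M2 macrophages received IL-4 (20 ng/ml), and KO M0 macrophages received media alone. Each condition has 2 Affymetrix Mouse 430 2.0 arrays, from different mice, and arrays that carry the same number in their titles are treated as 1 mouse, here mouse 1 or mouse 2. A further KO sample was removed by the study for its RNA quality. WT arrays were not analysed here, so no value below measures an effect of the deletion, and all of the comparisons are between conditions within the KO genotype.

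In macrophages, most scavenger receptors of this group bind polyanionic or lipid ligands. They deliver these to the endosome or exchange lipid at the membrane. Dying cells expose phosphatidylserine, which Gas6 and Mfge8 bind: Gas6 links it to the receptor kinases of the TAM family, among them Mertk and Axl, and Mfge8 links it to αv integrins. Classical activation with LPS signals through NF-κB, and alternative activation with IL-4 signals through STAT6. The mature strand of the deleted microRNA is shown because its absence is what all 6 arrays share. It lies at chr16:84714143-84714165 on the plus strand of GRCm38.p6 by RefSeq, and its seed, bases 2 to 8, is in capitals.

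mmu-miR-155-5p: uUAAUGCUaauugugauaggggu

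The values below are linear intensities after RMA, given for each array. The median intensity of all probe sets lay between 37.91 and 40.82 on the 6 arrays. None of the 8 macrophage markers examined was below the array median on all arrays, and their summed intensity was 82740 and 84800 in KO M1, 61510 and 58900 in KO M2 and 77040 and 78510 in KO M0 arrays of mouse 1 and mouse 2. In KO M2, 3 of these 8 markers fell relative to KO M0 (Emr1, Fcgr1 and Cd14), and in KO M1 Itgam rose. Markers of 7 other cell types were summed in the same way, and 5 of these lists (B cells, T and NK cells, fibroblasts, dendritic cells and erythroid cells) came to between 81.28 and 496.8 per array. The sums of neutrophil markers were 937.4 and 790.4 in KO M1, 628.6 and 449.5 in KO M2 and 686.4 and 600.3 in KO M0, and those of endothelial markers, which include Stab2, were 445.4 and 330.6 in KO M1, 737.7 and 505.4 in KO M2 and 476.3 and 356 in KO M0. Of all of these markers, S100a8, Dcn, Kdr and Pecam1 rose and Stab2 fell in KO M1 against KO M0, and Zbtb46 rose in KO M2 against KO M0. The log2 ratio of the 3′ over the 5′ control probe sets of Gapdh was 0.09 and 0.15 in KO M1, 0.2 and 0.11 in KO M2 and -0.08 and -0.07 in KO M0, so both stimulated conditions lay above KO M0. The part of these differences in the results below was not tested. In bulk RNA, fewer cells of a type and less RNA per cell cannot be told apart.

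Of the 10 genes, Cd36, Gas6 and Mfge8 fell in KO M1 relative to KO M0, and 7 genes (Marco, Msr1, Scarb1, Stab1, Mertk, Axl and Gas6) fell in KO M2 relative to KO M0. Each gene is counted by its brightest probe set, at an adjusted p under 0.05 in a limma fit over all 45037 probe sets. The 3 genes lower in KO M1 stand beside a background of 4.32% of all probe sets, and the 7 lower in KO M2 beside a background of 3.57%. These shares cover bright and dim probe sets alike, whereas most of the 10 genes lie far above the array medians. Shares over bright probe sets alone were not worked out. No gene of the group rose in KO M1 against KO M0, where 2.76% of all probe sets did. At an unadjusted limma p under 0.05, 2 of the 10 genes were higher there, beside 4432 of the 45037 probe sets. No gene rose in KO M2 against KO M0 either, where the background is 3.61%. Upwards, 0 of the 10 reached an unadjusted p under 0.05 there, beside 4361 of all probe sets. The methods' t-test called 0 of the 10 higher in either comparison, also without adjustment. It called 4 lower in KO M1 and 5 lower in KO M2 unadjusted, and 0 lower in either after adjustment. How many of all probe sets this t-test calls unadjusted was not worked out. With a pseudocount of 32 the limma counts were 2 lower in KO M1 and 2 lower in KO M2. Both comparisons share the KO M0 arrays. Set directly against KO M2, KO M1 was higher for 6 genes (Marco, Msr1, Scarb1, Stab1, Mertk and Axl), beside a background of 5.31%, and lower for Cd36, Gas6 and Mfge8, beside a background of 7.63%. The median log2 change over the 10 genes was 0.066 in KO M1 against KO M0, with 0.031 over all probe sets, and -0.80 in KO M2 against KO M0, with -0.018 over all probe sets. By probe set, 5 of 20 were lower in KO M1 and 13 of 20 in KO M2 against KO M0. Most of the KO M2 calls need all 4 arrays: most of the 7 were lost whichever of these arrays was left out. The direction could not change in these fits, because the KO M2 and KO M0 arrays did not overlap for any of the 7. With 2 arrays a condition, arrays can lie apart without any effect, here and for the single genes below. The share of all probe sets whose arrays lay apart was not worked out.

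**Figure D1:**
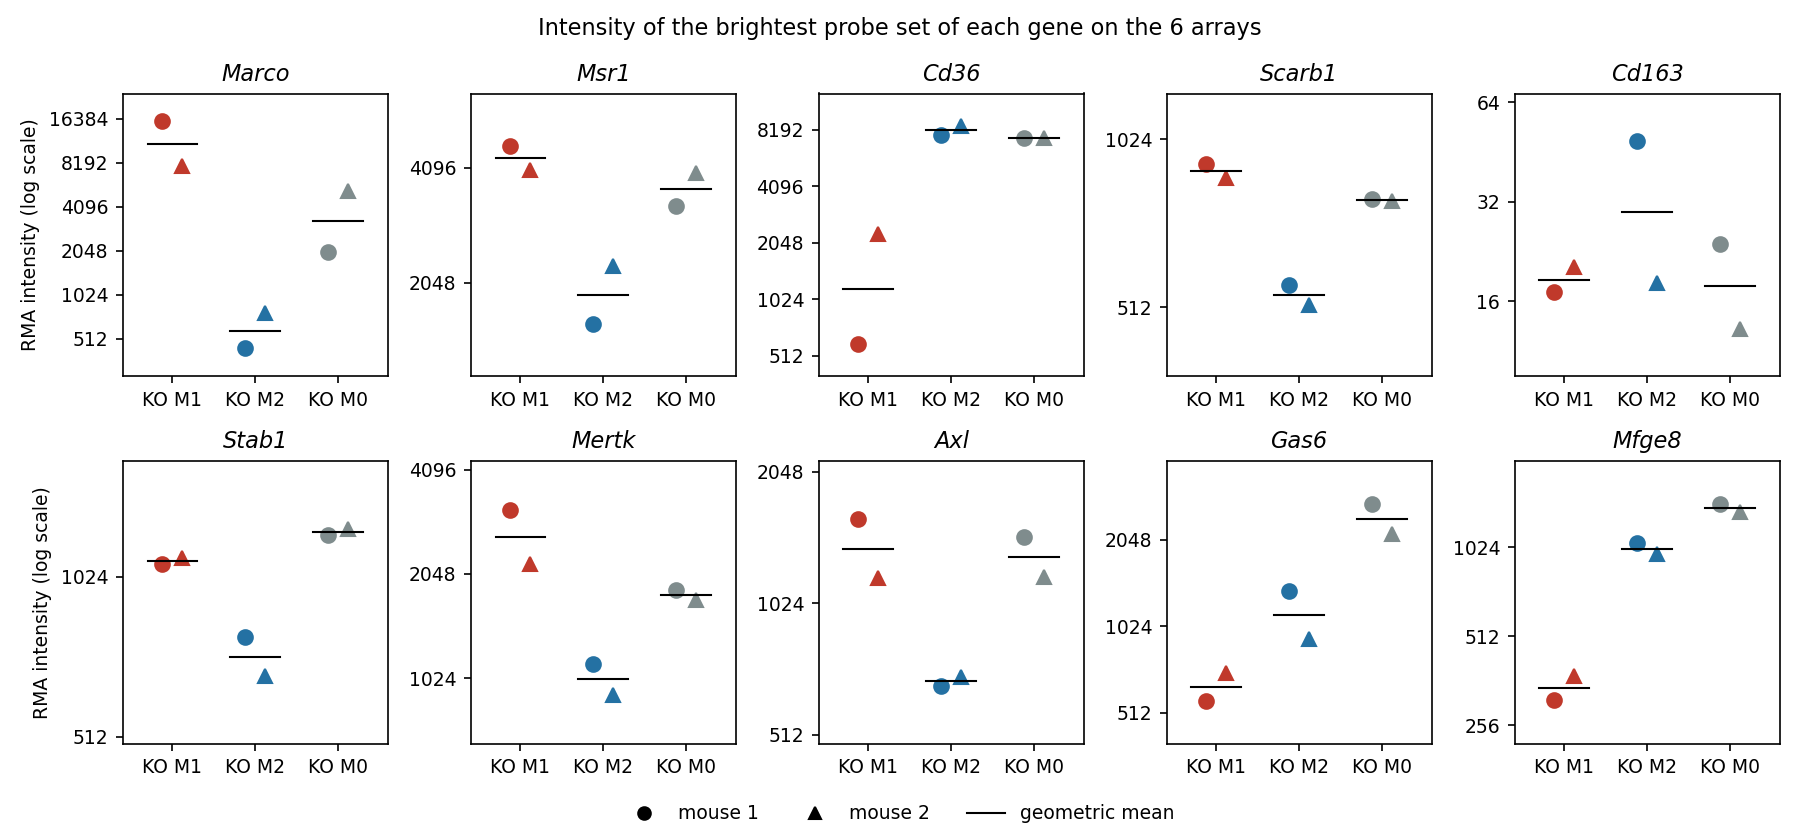
Intensity of the brightest probe set of each of the 10 genes on the 6 arrays (log axis, RMA linear intensity), with KO M1, KO M2 and KO M0 from left to right. Circles are mouse 1, triangles mouse 2, and the line is the geometric mean of both. Marco lay at 7734 or above in KO M1 and between 442 and 769 in KO M2, whereas Cd36, Gas6 and Mfge8 were lowest in KO M1.

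Marco, a class A scavenger receptor that binds bacteria and unopsonized particles, had the widest range of the group. Its brightest probe set (1449498_at) had 15660 in mouse 1 and 7734 in mouse 2 in KO M1, 442 and 769 in KO M2, and 2006 and 5248 in KO M0. The 3 conditions did not overlap, and the order was KO M1, KO M0 and KO M2 from high to low. The mice ranked in opposite ways, since mouse 1 was 2.02-fold above mouse 2 in KO M1 and mouse 2 was 2.62-fold above mouse 1 in KO M0. KO M2 was 5.57-fold lower than KO M0 (log2 -2.48, SE 0.47, adjusted p = 0.017), and KO M1 was 18.9-fold higher than KO M2 (log2 4.24, SE 0.47, adjusted p = 0.000568). KO M1 and KO M0, the upper neighbours in this order, did not differ past the threshold: the log2 difference was 1.76 (SE 0.47, 95% interval 0.68 to 2.85, adjusted p = 0.0648). That difference was 2.97 in mouse 1 and 0.56 in mouse 2. It was 2.46 with an adjusted p of 0.0371 without the KO M0 array of mouse 2, 2.27 and 0.0285 without the KO M1 array of mouse 2, and 1.07 and 0.341 without the KO M0 array of mouse 1. The KO M2 fall was -1.78 on the log2 scale (adjusted p = 0.106) without the KO M0 array of mouse 2 and -2.08 (adjusted p = 0.132) without the KO M2 array of mouse 1. It was -3.17 and -2.88 without the other KO M0 and the other KO M2 array, where it passed. The KO M1 excess over KO M2 passed whichever array was left out, with log2 values of 3.73 to 4.75.

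The second probe set of Marco (1458297_s_at) ran in the same way, with 11212 and 4415 in KO M1, 171 and 380 in KO M2 and 1303 and 3835 in KO M0. By this probe set KO M2 was 8.77-fold lower than KO M0 (adjusted p = 0.015), and KO M1 was 27.6-fold higher than KO M2 (adjusted p = 0.000908). The KO M2 call was lost here too without the KO M0 array of mouse 2 (adjusted p = 0.108) or the KO M2 array of mouse 1 (adjusted p = 0.119). The difference between KO M1 and KO M0 was 1.65 (SE 0.58, adjusted p = 0.147).

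The promoter of Marco, from 250 bases before to 50 bases after the RefSeq start, is shown because Marco had the widest range of the group across the conditions. It lies at chr1:120504975-120505274 on the minus strand of GRCm38.p6, and the capitals mark the only match in it, at -146 to -141 from the start, to 5 motifs searched on both strands: GAGGAA for PU.1, TTCNNNNGAA for STAT6, TTTCNNTTTC for interferon response elements, TGANTCA for AP-1 and TATAAA.

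Marco promoter: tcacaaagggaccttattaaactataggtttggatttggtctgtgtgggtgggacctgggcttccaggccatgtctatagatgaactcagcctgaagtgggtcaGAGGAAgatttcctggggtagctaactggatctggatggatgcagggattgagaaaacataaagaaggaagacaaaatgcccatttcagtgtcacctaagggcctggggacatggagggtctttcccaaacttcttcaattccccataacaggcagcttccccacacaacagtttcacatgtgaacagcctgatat

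The letters GAGGAA stand in 28.3% of 32851 promoters of this length, and in those of Marco, Axl, Mfge8 and Stab1 among the 8 of the 10 genes with an entry. TTTCNNTTTC stands in 3.44% of all promoters, TGANTCA in 7.81% and TATAAA in 13.6%, and none of them in the 8. A match is a run of letters and not a measured site, and these arrays hold no binding data.

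Msr1, the class A receptor through which macrophages take up acetylated LDL, has 4 probe sets, and all 4 fell in KO M2. The brightest (1422062_at) had 4673 in mouse 1 and 4049 in mouse 2 in KO M1, 1602 and 2273 in KO M2, and 3253 and 3974 in KO M0. The conditions did not overlap, but KO M1 and KO M0 were close: they differed by 0.28 on the log2 scale (SE 0.19, 95% interval -0.16 to 0.71, adjusted p = 0.48). KO M2 was 1.88-fold lower than KO M0 (log2 -0.91, SE 0.19, adjusted p = 0.0235). The other 3 probe sets gave log2 changes of -0.66 (1448061_at, adjusted p = 0.0334), -1.22 (1425434_a_at, 0.0175) and -0.77 (1425435_at, 0.0319). With the mouse as a block, 1448061_at had an adjusted p of 0.0609 and 1425435_at of 0.0637. For the brightest probe set the adjusted p was 0.0814 without the mouse 1 KO M0 array, 0.179 without the mouse 2 one and 0.137 without the KO M2 array of mouse 1. KO M1 was 2.28-fold higher than KO M2 (log2 1.19, SE 0.19, adjusted p = 0.00377), and the other probe sets were 0.73 to 1.03 higher.

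Cd36, a class B scavenger receptor for oxidized LDL and fatty acids that also takes part in the uptake of apoptotic cells, was the only receptor of the 8 that fell in KO M1. Its brightest probe set (1423166_at) had 594 in mouse 1 and 2295 in mouse 2 in KO M1, 7740 and 8614 in KO M2, and 7388 and 7386 in KO M0. The KO M1 arrays lay below all others, and mouse 2 was 3.86-fold above mouse 1 there, whereas the KO M0 arrays were almost equal. KO M1 was 6.33-fold lower than KO M0 (log2 -2.66, SE 0.49, adjusted p = 0.0139), by 12.4-fold in mouse 1 and 3.22-fold in mouse 2. Leaving out the KO M0 array of either mouse lost the call, although the log2 change hardly moves between 2 arrays so nearly equal. The KO M1 arrays were 1.95 apart on the log2 scale, and this difference enters the spread of the fit. The adjusted p was 0.0831 with a pseudocount of 32 and 0.132 with an intensity trend and a robust prior. Leaving out the KO M1 array of mouse 1 gave a log2 change of -1.69, and leaving out that of mouse 2 gave -3.64. Those fits no longer hold the difference between the KO M1 arrays.

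The other probe sets of Cd36 fell as well. The second (1450883_a_at) had 620 and 1741 in KO M1, 5679 and 6824 in KO M2, and 6237 and 6419 in KO M0, which is a log2 change of -2.61 in KO M1 against KO M0 (SE 0.39, adjusted p = 0.00486). The third (1450884_at) had 16.3 and 72.4 in KO M1, 506 and 598 in KO M2, and 430 and 382 in KO M0, and its log2 change was -3.56 (SE 0.54, adjusted p = 0.00549). When the KO M0 array of mouse 1 was left out, the adjusted p was 0.0531 for the second and 0.0628 for the third, and leaving out that of mouse 2 gave 0.0516 for the second. With a trend and a robust prior it was 0.0638 and 0.0883. KO M2 and KO M0 did not differ past the threshold by any of the 3, and for the brightest the log2 difference was 0.15 (95% interval -0.97 to 1.26, adjusted p = 0.921). The SE of that difference, 0.49, is pooled over the 3 conditions. KO M1 was 6.99-fold lower than KO M2 (log2 -2.81, adjusted p = 0.00605, and 0.0539 without the KO M2 array of mouse 2).

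The promoter of Cd36 is shown because it was the only promoter of the 8 with a match to the STAT6 letters TTCNNNNGAA, which stand in 6.95% of all promoters of this length. It lies at chr5:17835847-17836146 on the minus strand of GRCm38.p6, and the capitals mark the match at bases 20 to 29 after the start. Cd36 is transcribed from several starts, and the window covers only the 1 in the table. With IL-4, the stimulus that signals through STAT6, Cd36 had the levels given above, which did not differ from KO M0 past the threshold. Whether STAT6 binds these letters or acts on Cd36 was not tested.

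Cd36 promoter: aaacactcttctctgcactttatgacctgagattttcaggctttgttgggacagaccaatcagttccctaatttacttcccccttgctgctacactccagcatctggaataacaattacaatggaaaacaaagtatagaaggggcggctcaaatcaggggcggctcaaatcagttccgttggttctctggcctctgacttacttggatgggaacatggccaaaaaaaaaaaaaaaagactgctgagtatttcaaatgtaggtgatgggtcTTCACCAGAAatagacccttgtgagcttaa

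Scarb1, the HDL receptor of the class B family, fell in KO M2 by a smaller step. Its brightest probe set (1416050_a_at) had 923 in mouse 1 and 871 in mouse 2 in KO M1, 562 and 515 in KO M2, and 799 and 794 in KO M0. The 3 conditions did not overlap, and the mice were within 1.09-fold of each other in each. KO M2 was 1.48-fold lower than KO M0 (log2 -0.57, SE 0.12, adjusted p = 0.0266), with 0.179 and 0.152 when the KO M0 array of mouse 1 or mouse 2 was left out and 0.0851 and 0.143 when the KO M2 array of mouse 1 or mouse 2 was. The other probe sets fell by 0.83 (1437378_x_at, adjusted p = 0.0106) and 0.66 (1455820_x_at, adjusted p = 0.0322; blocking on the mouse gave 0.06) on the log2 scale. KO M1 and KO M0 differed by 0.17 (SE 0.12, 95% interval -0.10 to 0.45, adjusted p = 0.492), and KO M1 was 1.67-fold higher than KO M2 (log2 0.74, SE 0.12, adjusted p = 0.00437).

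Stab1, a stabilin that clears acetylated LDL and binds phosphatidylserine, had 1081 in mouse 1 and 1113 in mouse 2 in KO M1, 788 and 667 in KO M2, and 1230 and 1261 in KO M0 (1450199_a_at). All conditions were apart, with KO M0 the highest. KO M2 was 1.72-fold lower than KO M0 (log2 -0.78, SE 0.13, adjusted p = 0.00883), with 0.0782 and 0.0819 without the KO M0 array of mouse 1 or mouse 2 and 0.0629 without the KO M2 array of mouse 2. KO M1 differed from KO M0 by -0.18 (SE 0.13, 95% interval -0.48 to 0.11, adjusted p = 0.495). KO M1 was 1.51-fold higher than KO M2 (log2 0.60, SE 0.13, adjusted p = 0.0173), with 0.0526 without the KO M1 array of mouse 2 and 0.125 without the KO M2 array of mouse 2.

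Cd163, the receptor for haptoglobin and haemoglobin complexes, was dim. It had 17.1 in mouse 1 and 20.4 in mouse 2 in KO M1, 49.0 and 18.2 in KO M2, and 23.9 and 13.2 in KO M0 (1419144_at), between percentile 22.0 and percentile 55.0 of the arrays. The conditions overlapped, and the highest value came from 1 array, KO M2 of mouse 1. KO M2 against KO M0 gave 0.75 (SE 0.43, 95% interval -0.22 to 1.72, adjusted p = 0.4) and KO M1 against KO M0 gave 0.069 (SE 0.43, adjusted p = 0.957). KO M1 against KO M2 gave -0.68 (SE 0.43, adjusted p = 0.371). That difference was -1.40 without the KO M2 array of mouse 2, with an adjusted p just under the threshold (0.05 when rounded), and 0.035 without the KO M2 array of mouse 1 (adjusted p = 0.965). With all 6 arrays no difference of Cd163 passed.

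**Figure D2:**
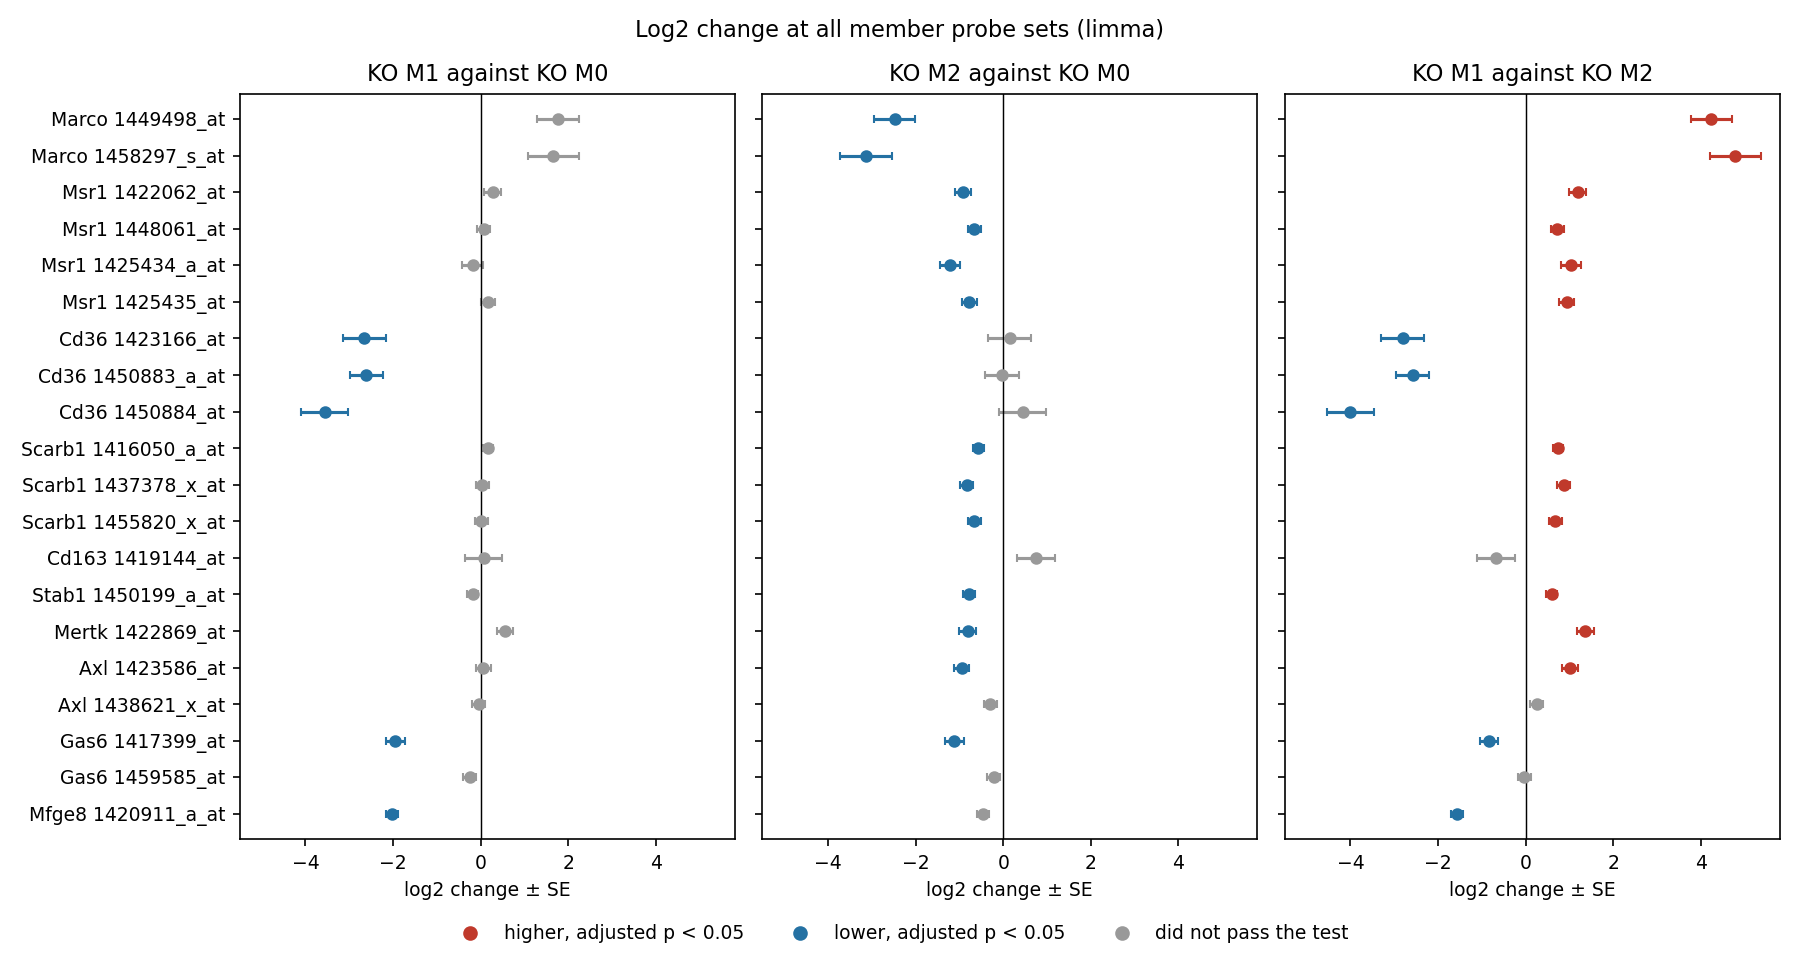
Log2 change with its SE (bars) of all 20 probe sets of the 10 genes, from the limma fit, in KO M1 against KO M0, KO M2 against KO M0 and KO M1 against KO M2. Red marks probe sets that were higher and blue those that were lower at an adjusted p under 0.05, and grey those that did not pass. Of the 20, 5 are blue in KO M1 against KO M0 and 13 in KO M2 against KO M0.

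Mertk, the TAM receptor kinase through which macrophages engulf apoptotic cells, had 3138 in mouse 1 and 2186 in mouse 2 in KO M1, 1127 and 917 in KO M2, and 1843 and 1728 in KO M0 (1422869_at). The conditions did not overlap, and the order was KO M1, KO M0 and KO M2. KO M2 was 1.76-fold lower than KO M0 (log2 -0.81, SE 0.19, adjusted p = 0.0364). The adjusted p was 0.23 and 0.157 without the KO M0 array of mouse 1 or mouse 2, 0.0818 and 0.197 without the KO M2 array of mouse 1 or mouse 2, and 0.0511 with arrays centred on their medians. KO M1 and KO M0 did not differ past the threshold (log2 0.55, SE 0.19, 95% interval 0.13 to 0.98, adjusted p = 0.129), but did without the KO M1 array of mouse 2 (log2 0.81, adjusted p = 0.0227). KO M1 was 2.58-fold higher than KO M2 (log2 1.37, SE 0.19, adjusted p = 0.00169), and this passed whichever array was left out.

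Axl, the other TAM receptor of the group, which in mouse macrophages is known for its induction by interferon and Toll-like receptor ligands, had 1598 in mouse 1 and 1170 in mouse 2 in KO M1, 664 and 694 in KO M2, and 1455 and 1177 in KO M0 (1423586_at). KO M1 and KO M0 overlapped, and both lay above KO M2. The log2 difference between KO M1 and KO M0 was 0.063 (SE 0.18, 95% interval -0.34 to 0.46, adjusted p = 0.895). KO M2 was 1.93-fold lower than KO M0 (log2 -0.95, SE 0.18, adjusted p = 0.0147), with 0.146 without the KO M0 array of mouse 1 and 0.0985 and 0.0722 without the KO M2 array of mouse 1 or mouse 2. KO M1 was 2.01-fold higher than KO M2 (log2 1.01, SE 0.18, adjusted p = 0.00602). The other probe set of Axl (1438621_x_at) lay between 5.78 and 8.35 on all arrays, at or under percentile 9.5, and passed in no comparison.

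Gas6, the vitamin K-dependent ligand of the TAM receptors, fell in both stimulated conditions. It had 561 in mouse 1 and 702 in mouse 2 in KO M1, 1357 and 922 in KO M2, and 2734 and 2137 in KO M0 (1417399_at). The conditions did not overlap, and KO M0 was the highest. KO M1 was 3.85-fold lower than KO M0 (log2 -1.95, SE 0.21, adjusted p = 0.00109), which passed whichever array was left out (adjusted p at most 0.0194). KO M2 was 2.16-fold lower than KO M0 (log2 -1.11, SE 0.21, adjusted p = 0.0167), with 0.158 and 0.0532 without the KO M0 array of mouse 1 or mouse 2 and 0.0955 without the KO M2 array of mouse 2. KO M1 was lower than KO M2 by 1.78-fold (log2 -0.83, SE 0.21, adjusted p = 0.0347), with 0.0528 without the KO M0 array of either mouse, 0.132 without the KO M1 array and 0.184 without the KO M2 array of mouse 1. The other probe set of Gas6 (1459585_at) had 40.3 to 57.4 and passed in no comparison.

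Mfge8, which bridges phosphatidylserine to integrins, had the smallest SE among the 3 genes that fell in KO M1. It had 312 in mouse 1 and 376 in mouse 2 in KO M1, 1057 and 975 in KO M2, and 1432 and 1352 in KO M0 (1420911_a_at). The conditions did not overlap, and the KO M1 arrays lay far below the rest. KO M1 was 4.06-fold lower than KO M0 (log2 -2.02, SE 0.14, adjusted p = 0.000131) and 2.96-fold lower than KO M2 (log2 -1.57, SE 0.14, adjusted p = 0.000146). The first passed whichever array was left out, with log2 changes of -1.89 to -2.16, and so did the second, with -1.43 to -1.70. KO M2 against KO M0 gave -0.46 (SE 0.14, 95% interval -0.77 to -0.14, adjusted p = 0.0941), which did not pass.

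The arrays taken as mouse 1 and as mouse 2 differed in the size of the KO M1 change. In KO M1 against KO M0 the absolute log2 change was larger in mouse 1 than in mouse 2 for 9 of the 10 genes, in genes that were higher and in genes that were lower alike, where it was so for 50.2% of all probe sets and 61.8% of the 3186 called ones. Marco had 2.97 in mouse 1 and 0.56 in mouse 2, Cd36 -3.64 and -1.69, Gas6 -2.28 and -1.61, and Mfge8 -2.20 and -1.84. Both mice moved in the same direction for 8 of the 10 genes, and the exceptions were Cd163 and Axl. In KO M2 against KO M0 the change was larger in mouse 1 for 3 of the 10 genes, with 52.2% of all probe sets, and the direction was the same in both mice for all 10. Between the 2 arrays of a condition, 433 of all probe sets differed over 2-fold in KO M1, 120 in KO M2 and 49 in KO M0, and 5, 2 and 2 of the 20 probe sets described here did. With 1 array per mouse and condition, the difference between the mice has no test.

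**Figure D3:**
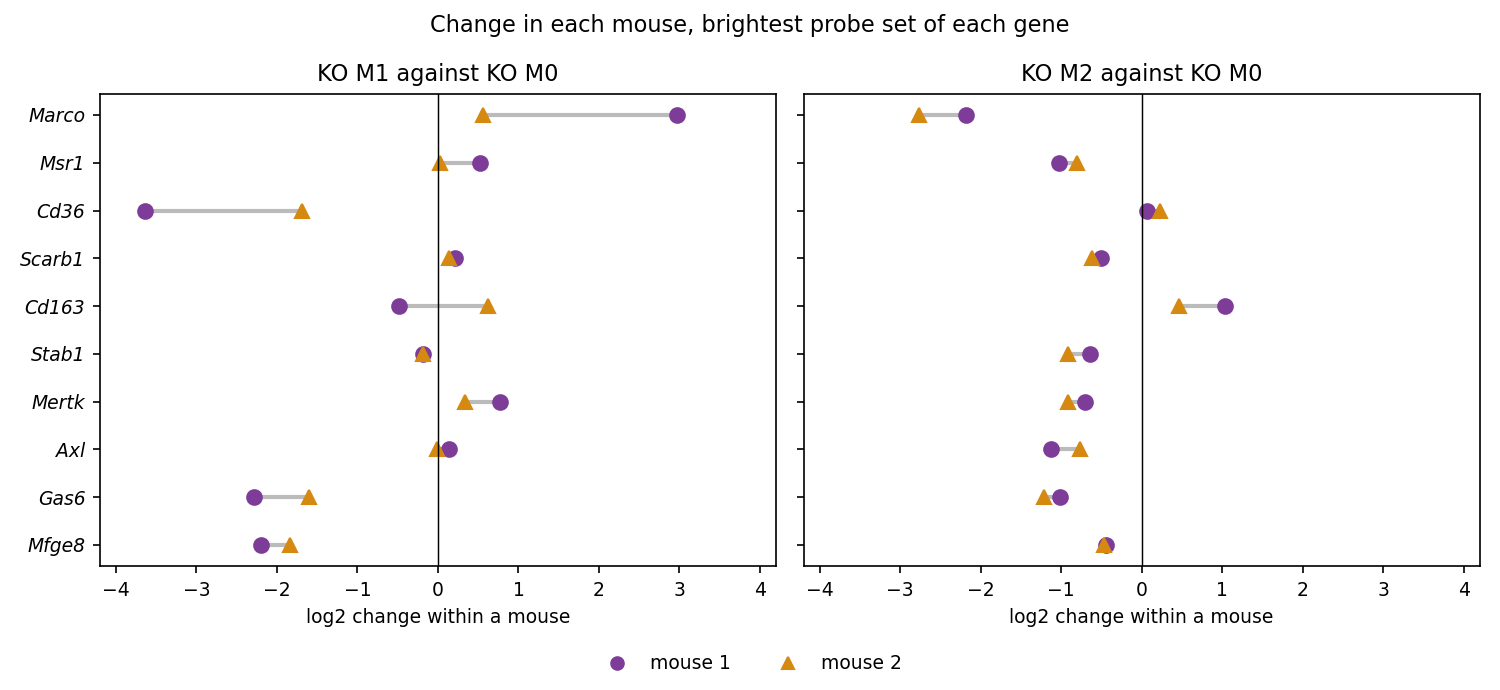
Log2 change of each of the 10 genes (brightest probe set) in mouse 1 and in mouse 2, for KO M1 against KO M0 and for KO M2 against KO M0. Each mouse is its own pair of arrays, so no error can be given. Marco changed by 2.97 in mouse 1 and 0.56 in mouse 2 in KO M1, and Cd36 by -3.64 and -1.69.

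Further scavenger receptors moved in both directions. Of 15 such receptors, 4 fell and 1 rose in KO M1, where 4.32% of all probe sets fell and 2.76% rose, and 1 fell and 2 rose in KO M2, where 3.57% fell and 3.61% rose, each against KO M0. The median log2 change of these 15 came to 0.012 for KO M1, with 0.031 over all probe sets, and to -0.14 for KO M2, with -0.018 over all probe sets. Blocking on the mouse made it 5 lower in KO M1 and 2 lower in KO M2, the gain being Cd5l, a secreted scavenger protein of macrophages, looked up after its values were seen. Cd5l had 359 and 1624 in KO M1, 479 and 814 in KO M2 and 2401 and 3615 in KO M0, with log2 changes of -1.95 (adjusted p = 0.0939, blocked 0.0209) and -2.24 (adjusted p = 0.0598, blocked 0.0124). Mrc1, the mannose receptor of alternatively activated macrophages, had 130 and 200 in KO M1, 9583 and 8705 in KO M2 and 3268 and 3368 in KO M0. It was 20.6-fold lower in KO M1 (log2 -4.36, SE 0.19, adjusted p = 3.13e-05) and 2.75-fold higher in KO M2 (log2 1.46, SE 0.19, adjusted p = 0.00273) than in KO M0. Stab2, the paralog of Stab1, had 72.4 and 85.2 in KO M1, 539 and 372 in KO M2 and 321 and 207 in KO M0, and was 3.28-fold lower in KO M1 (log2 -1.71, SE 0.24, adjusted p = 0.00363). Olr1, the lectin-like receptor for oxidized LDL, had 70.1 and 71.3 in KO M2 and 6.66 and 9.13 in KO M0, far below the array medians there. It was higher in KO M2 (log2 3.18, SE 0.18, adjusted p = 3.84e-05), but the size depends on those dim values: it was 1.365 with a pseudocount of 32 (adjusted p = 0.0019), and leaving out dim probe sets removed the gene.

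The remaining calls of that list were smaller. Cxcl16, a membrane chemokine that binds oxidized LDL, was higher in KO M1 than in KO M0 (log2 0.98, adjusted p = 0.00364, and 0.0535 without the KO M0 array of mouse 1). Lrp1, an endocytic receptor for apolipoproteins that also takes up dying cells, fell by 0.81 on the log2 scale in KO M1 (adjusted p = 0.0265) and by 0.82 in KO M2 (adjusted p = 0.0257), and each call was lost without the KO M0 array of mouse 1 (0.117 in KO M1, 0.116 in KO M2) or of mouse 2 (0.191 and 0.182). It was lost as well without the KO M1 array of mouse 1 (0.0873 in KO M1) and without the KO M2 array of mouse 1 or mouse 2 (0.0759 and 0.151 in KO M2). Colec12, a collectin with scavenger activity, was dim (12.8 to 34.0) and fell by 1.04 in KO M1 (adjusted p = 0.0139, and 0.07 and 0.126 without the KO M0 array of mouse 1 or mouse 2).

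Other receptors for apoptotic cells and their bridging molecules also moved in both directions. Of 21 measured, 6 fell and 2 rose in KO M1 against KO M0 (4.32% and 2.76% of all probe sets), and 2 fell and 1 rose in KO M2 against KO M0 (3.57% and 3.61%). Their median log2 changes were -0.14 and -0.12, beside 0.031 and -0.018 over all probe sets. The lower count in KO M1 ran between 3 and 7 as single arrays were left out. Trem2, a lipid receptor that binds apoptotic cells, had 631 and 1171 in KO M1, 4973 and 5198 in KO M2 and 6752 and 5836 in KO M0, and was 7.3-fold lower in KO M1 (log2 -2.87, SE 0.25, adjusted p = 0.000379). Cd300lf, which binds phosphatidylserine, had 1084 and 1294 in KO M1, 145 and 156 in KO M2 and 369 and 362 in KO M0. It was 3.24-fold higher in KO M1 (log2 1.70, SE 0.13, adjusted p = 0.000233) and 2.43-fold lower in KO M2 (log2 -1.28, SE 0.13, adjusted p = 0.000869) than in KO M0. Its relative Cd300lb ran the other way in KO M1, with 531 and 859 against 2165 and 1664 in KO M0 (log2 -1.49, SE 0.23, adjusted p = 0.00584, and 0.0724 without the KO M0 array of mouse 1).

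Thbs1, a secreted bridge between dying cells and the receptor pair of Cd36 and αvβ3 integrin, was higher in KO M1 (3226 and 6704) than in KO M0 (1145 and 808), by 2.27 on the log2 scale (SE 0.49, adjusted p = 0.0273). This call was lost without the KO M0 array of mouse 1 or mouse 2 (adjusted p = 0.115 and 0.193) or the KO M1 array of mouse 2 (0.0858). Itgb3, the β3 subunit of that integrin, had 1202 and 928 in KO M2 and 52.3 and 40.97 in KO M0, 22.8-fold higher (log2 4.51, SE 0.18, adjusted p = 4.15e-06). In KO M1 Itgb3 had 20.7 and 23.5 and was lower than in KO M0 (log2 -1.07, SE 0.18, adjusted p = 0.00804), with 0.0905 without the KO M0 array of mouse 1 and 0.109 with a pseudocount of 32. Cd14, a co-receptor for LPS that also binds apoptotic cells, had 2733 and 2211 in KO M2 and 6871 and 7745 in KO M0 (log2 -1.57, SE 0.22, adjusted p = 0.00406). Among genes looked up after their values were seen, Pros1, which encodes protein S, another ligand of Mertk, had 69.8 and 108 in KO M1, 301 and 341 in KO M2 and 238 and 232 in KO M0. In KO M1 Pros1 was 2.71-fold below KO M0 (log2 -1.44, SE 0.20, adjusted p = 0.00333), so that the ligands Gas6 and Pros1 were both lower there. Tyro3, the remaining TAM receptor, lay between 37.2 and 44.5 on all arrays, near the array medians, and passed in no comparison. Itgav, the αv subunit, and Itgb5 did not pass either, with log2 changes of -0.27 and -0.078 for KO M1 and of -0.27 and -0.041 for KO M2.

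The next list holds the intracellular engulfment machinery. Of 17 genes measured, 2 rose and 0 fell in KO M1 against KO M0 (2 were lower at an unadjusted p under 0.05), beside 2.76% and 4.32% of all probe sets, and 1 rose and 1 fell in KO M2 against KO M0, beside 3.61% and 3.57%. The median log2 changes were -0.061 and 0.021, with 0.031 and -0.018 over all probe sets. Elmo2, part of the exchange factor that activates Rac during engulfment, had 1063 and 898 in KO M2 and 430 and 342 in KO M0, 2.55-fold higher (log2 1.35, SE 0.15, adjusted p = 0.00127). Rac2, the haematopoietic Rac GTPase, had 9240 and 8325 in KO M1, 3528 and 3644 in KO M2 and 5388 and 6213 in KO M0. Its log2 changes were 0.60 in KO M1 (adjusted p = 0.029; blocking on the mouse gave 0.0575) and -0.69 in KO M2 (adjusted p = 0.0161). The first had adjusted p values of 0.222, 0.0846, 0.1, 0.0517 and 0.0517 without the KO M0 array of mouse 1, that of mouse 2, the KO M1 array of mouse 1 and the KO M2 array of mouse 1 or mouse 2. The second had 0.0656 and 0.142 without the KO M0 array of mouse 1 or mouse 2 and 0.101 and 0.0739 without the KO M2 array of mouse 1 or mouse 2. Abca7, a transporter with a part in phagocytosis, rose by 0.67 in KO M1 (adjusted p = 0.0153, and 0.15 and 0.0635 without the KO M0 array of mouse 1 or mouse 2). Adam10 and Adam17, the proteases that shed Mertk and Axl from the surface, passed in neither comparison with KO M0, with 0 at an unadjusted p under 0.05 by limma.

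Nuclear receptors and other transcription factors known to act on receptors of this kind moved in both directions. Of 8 measured, 2 rose and 1 fell in KO M1 (2.76% and 4.32% of all probe sets), and 1 rose and 2 fell in KO M2 (3.61% and 3.57%), each against KO M0. The median log2 changes were 0.215 and 0.157, with 0.031 and -0.018 over all probe sets. Pparg, known to drive Cd36 in macrophages, had 37.7 and 39.4 in KO M1, 500 and 467 in KO M2 and 289 and 280 in KO M0. In KO M1 it was 7.38-fold below KO M0 (log2 -2.88, SE 0.12, adjusted p = 2.13e-05), and Cd36 was lower there too. Whether Pparg acted on Cd36 in these cells was not tested. In KO M2 Pparg was 1.7-fold higher (log2 0.77, SE 0.12, adjusted p = 0.00628), where Cd36 did not pass, and that call was lost without the KO M0 array of mouse 1 or mouse 2 (0.0619 and 0.0672) or the KO M2 array of mouse 1 (0.0561).

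Nr1h3, which encodes LXRα, a receptor for oxysterols known to raise Mertk, had 1336 and 789 in KO M1, 215 and 216 in KO M2 and 401 and 457 in KO M0. Whether Nr1h3 acted on Mertk in these cells was not tested. The order of its condition means was that of Mertk, and also that of Marco, Msr1, Scarb1 and Axl by the brightest probe set. None of these members differed between KO M1 and KO M0 past the threshold. Msr1 1425434_a_at and Axl 1438621_x_at ran the other way there (log2 -0.18 and -0.046). It was 2.4-fold higher in KO M1 (log2 1.26, SE 0.22, adjusted p = 0.0112, and 0.113 and 0.065 without the KO M0 array of mouse 1 or mouse 2). It was 1.99-fold lower in KO M2 (log2 -0.99, SE 0.22, adjusted p = 0.0328). With the mouse as a block that p was 0.0516, and it was 0.144 and 0.206 without the KO M0 array of mouse 1 or mouse 2, and 0.156 and 0.141 without the KO M2 array of mouse 1 or mouse 2. Ppard, a relative of Pparg, rose by 0.67 in KO M1 (adjusted p = 0.0109, and 0.105 and 0.0831 without the KO M0 array of mouse 1 or mouse 2).

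Maf, a transcription factor of differentiated macrophages, did not pass in KO M1 by its brightest probe set (log2 -0.34, adjusted p = 0.488). For KO M1 against KO M0 the paper lists a fall of Maf, without naming a probe set. By the brightest probe set Maf had 1159 and 689 in KO M2 and 2355 and 2512 in KO M0 (log2 -1.44, SE 0.24, adjusted p = 0.0085). Without the KO M0 array of mouse 1 or mouse 2 the adjusted p was 0.0708 and 0.0788.

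**Figure D4:**
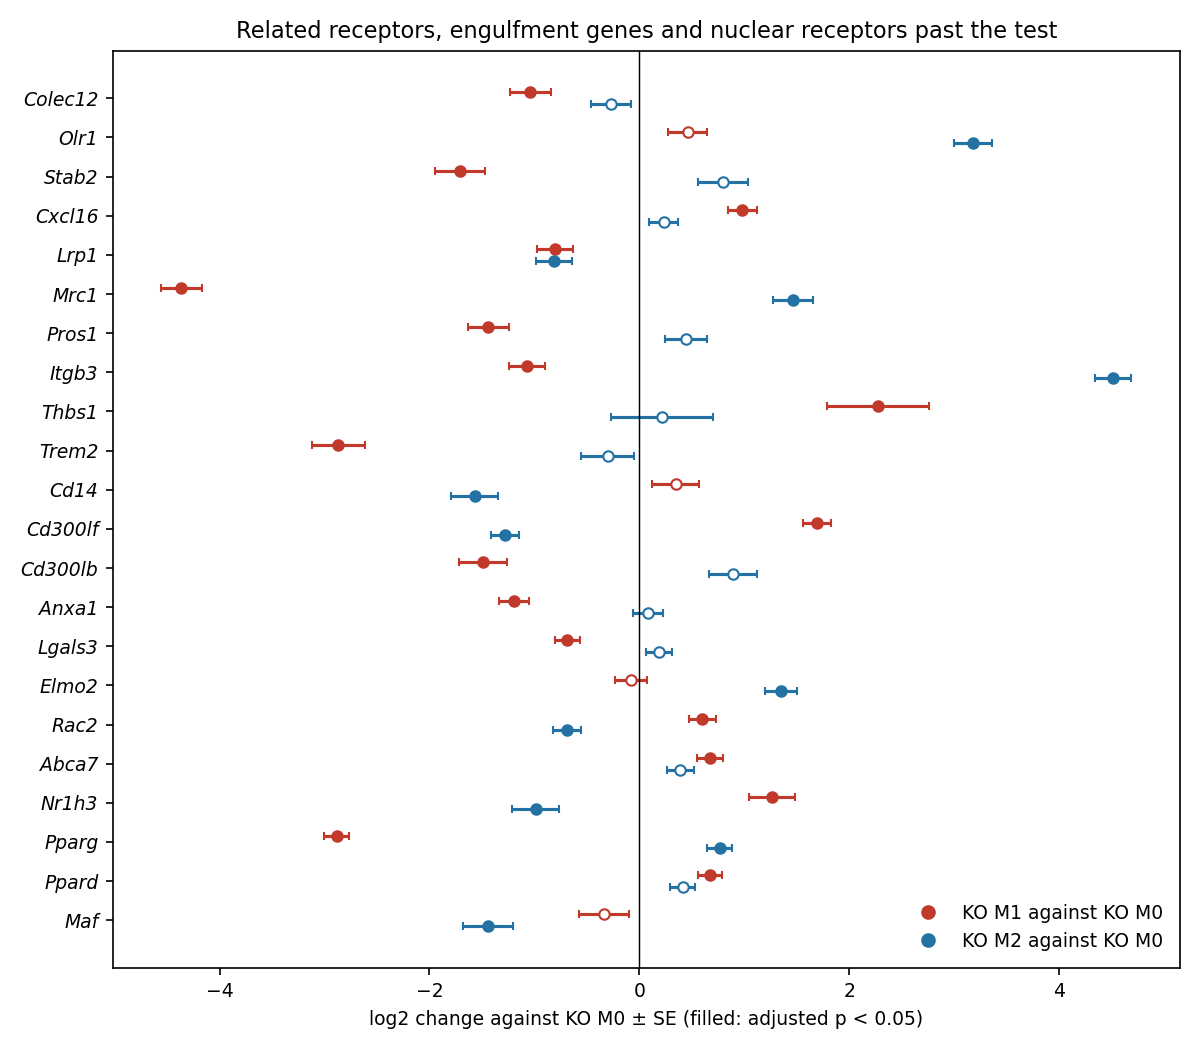
Log2 change with its SE (bars) against KO M0 for the 22 genes of the wider lists that passed in at least 1 of the comparisons with KO M0, with KO M1 in red and KO M2 in blue. Filled points passed at an adjusted p under 0.05. Mrc1 and Pparg are lower in KO M1 and higher in KO M2, Cd300lf and Nr1h3 the reverse, and Itgb3 reaches 4.51 in KO M2.

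For each of the 9 genes called in some comparison, the 2 genes whose centred log2 values over the 6 arrays lay nearest, by Euclidean distance among 20957 other genes, were looked up. For Marco they were Saa3 (distance 0.89) and Fam26f (1.16), for Msr1 Slfn10-ps (0.25) and Plscr1 (0.28), and for Cd36 S100a6 (0.45) and St6gal1 (0.58). For Scarb1 they were Notch2 (0.031) and Cysltr1 (0.13), for Stab1 Tgfbr2 (0.14) and Fabp5 (0.14), for Mertk Pnp (0.14) and Pml (0.21), and for Axl Ankrd33b (0.21) and Cyfip2 (0.26). For Gas6 they were Slc9a9 (0.43) and Arap3 (0.54), and for Mfge8 Smagp (0.16) and Nrp1 (0.23). The distances describe these 6 arrays only, and all 3 conditions and both mice enter them.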

How the data were processed

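RNA of bone marrow-derived macrophages from 2 miR-155 KO mice was measured in KO M1, KO M2 and KO M0 conditions on 6 arrays. The authors normalized the arrays with RMA (Expression File Creator, GenePattern) and deposited the result as linear intensities, in 2 tables that differ by at most 5e-06. Not given in the sources used here are the version, the genome build of the annotation, and whether further arrays entered the normalization. RMA makes the arrays alike in distribution and compresses changes of dim and very bright probe sets. The authors' table also holds condition means, folds, t-test p-values and a coefficient of variation, which were not used. The number of arrays limits the precision.

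Intensities were put on the log2 scale, and 64 control probe sets of 45101 were left out. Of the rest 38544 have 1 symbol, 859 several and 5634 none. All conditions entered 1 fit with limma 3.58.1 (R 4.3.3; lmFit, eBayes; 3 residual and 5.49 prior degrees of freedom), with two-sided p adjusted by Benjamini-Hochberg over 45037 probe sets and called under 0.05. A fold change is the ratio of geometric means. The scripts were tested on simulated data. A gene of several probe sets is counted by the brightest by mean. All probe sets are given only for the scavenger and efferocytosis receptor genes named at the start. For the wider lists and the markers only the brightest is given. Whether their other probe sets differ from it was not examined.

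The 10 genes, the lists and the markers were chosen with earlier results of these data known. All 10 are named, with up to 4 genes of each wider list, those that changed most among the ones past the test in each comparison with KO M0, and 2 profile neighbours of each called gene. Other names were chosen after their values were seen. A few listed items were left out of the text.

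The numbers in the titles pair the arrays by mouse. Deviations from the condition means of same-numbered arrays correlated at -0.162 (KO M1 and KO M0), 0.209 (KO M2 and KO M0) and -0.215 (KO M1 and KO M2). The mouse as a block, each array left out, a filter at an intensity of 50, a pseudocount of 32, median centring, trend with a robust prior, 2 conditions alone, the methods' t-test, the other table and the mean of a gene's probe sets were alternatives. Promoters and the microRNA are RefSeq sequences of GRCm38.p6, and all 10 symbols matched RefSeq. The probe set annotated to Mir155 had 10.5 and 9.42 in KO M1, 9.33 and 10.1 in KO M2 and 10.8 and 9.94 in KO M0. Its position relative to the deletion is not known here, so it checks nothing.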

Additional observations from a re-analysis of the deposited data

How the results depend on the processing

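With 2 arrays a condition, the calls depend on each array. Where the arrays of 2 conditions do not overlap, leaving out 1 array cannot change the direction. Leaving out single arrays moved the genes lower in KO M2 against KO M0 between 1 and 7 (probe sets 1 to 13), those lower in KO M1 between 2 and 3 (probe sets 2 to 5) and those higher in KO M1 between 0 and 2 (probe sets 0 to 2). A pseudocount of 32 left 2 genes (3 probe sets) lower in KO M2 against KO M0, and 1 gene (3 probe sets) lower in KO M1 against KO M2. A trend with a robust prior left 2 probe sets lower in KO M1 against KO M0. The methods' t-test called 0 genes and 0 probe sets after Benjamini-Hochberg in every comparison and direction. Unadjusted, it called 8 probe sets lower in KO M2 against KO M0, and 3 genes (4 probe sets) higher in KO M1 against KO M2. The matching share of all probe sets was not worked out. With the mouse as a replicate block, 10 of the 13 probe sets lower in KO M2 passed, the losses being Msr1 1448061_at (adjusted p = 0.0609), Msr1 1425435_at (0.0637) and Scarb1 1455820_x_at (0.06), and no other call of the 20 probe sets changed. A crossed pairing of the mice, chosen after seeing the data, called 1 gene (2 probe sets) higher in KO M1 against KO M0. With the mean of a gene's probe sets, Axl had an adjusted p of 0.0567 in KO M2 against KO M0 and Gas6 0.0716 in KO M1 against KO M2. The cause of these losses was not tested.

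Over all alternatives the 20 probe sets kept direction and call 726 times, lost the call 140 times, gained it 6 times and changed sign 19 times, each time without a call. The mouse as a block, trend with a robust prior, 2 conditions alone and the other table leave the log2 change as it is. Leaving out an array of a condition not compared does so too. Probe sets without a call that stayed without one also count as kept, so the first number does not measure robustness. As single arrays were left out, the log2 change in KO M1 against KO M0 ran between -0.22 and 0.13 for Axl 1438621_x_at, -0.16 and 0.29 for Axl 1423586_at, -0.36 and 0.50 for Cd163, -0.045 and 0.19 for Msr1 1448061_at, -0.015 and 0.35 for Msr1 1425435_at, -0.40 and 0.037 for Msr1 1425434_a_at, -0.13 and 0.20 for Scarb1 1437378_x_at and -0.15 and 0.18 for Scarb1 1455820_x_at. In KO M2 against KO M0 it ran between -0.16 and 0.11 for Cd36 1450883_a_at, which had 0.042 with arrays centred on their medians. In KO M1 against KO M2 it ran between -1.40 and 0.035 for Cd163 (-1.40, without the KO M2 array of mouse 2, passed with an adjusted p that rounds to 0.05) and between -0.21 and 0.15 for Gas6 1459585_at.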
